A study of Homo sapiens with 12 samples.

Results

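Gene-body marks of trimethylated lysine 27 of histone H3 (H3K27me3) were analysed in Tau-expressing SH-SY5Y neuroblastoma cells (WT) and in 2 lines made from them without Tau (Tau-KO), 231K and 232P. A mark is the interval obtained by merging the peaks of the 2 WT lists that overlap by at least 1 bp. A gene-body mark had peaks of both WT lists, lay on an autosome, was under 20 kb wide, overlapped the body of a protein-coding gene (GENCODE release 44, hg38) and had no protein-coding transcription start site (TSS) within 1 kb. Members were thus chosen by the presence of called peaks in both WT lists, by position and by width. This rule gave 28976 gene-body marks, which were 28.0% of the 103326 autosomal marks of both WT lists. The WT lists merged to 234369 autosomal intervals in all. Of the other marks of both WT lists, 5893 lay at a TSS (promoter marks), 67912 lay outside protein-coding genes and away from a TSS (intergenic marks) and 545 were 20 kb or wider. The widest gene-body mark spanned 19897 bp. The narrowest interval that only its width excluded spanned 20051 bp, and 136 intervals were excluded in this way. Because the rule asked for peaks in both WT lists, presence and strength in WT cells are given below as a description. Tests used the 4 Tau-KO lists only, and values set beside WT carry no test.

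SH-SY5Y is an established human line of neuroblastoma, a tumour of the sympathetic nervous system. 231K and 232P are lines derived from it in which MAPT, the gene of the microtubule-associated protein Tau, was knocked out with CRISPR-Cas9, and each stands for its genotype as a single line. All groups carried the genetic changes of the parental tumour line and no treatment is named in the labels. Chromatin was immunoprecipitated with the antibody C36B11, and each genotype was represented by 2 samples labelled as replicates. The 6 inputs were not analysed here. The study calls the samples biological duplicates, but no source used here says whether they came from separate cultures, so that p-values measure only the spread between these samples.

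H3K27me3 is written by the Polycomb repressive complex 2 (PRC2), with EZH2 or EZH1 as catalytic subunit, and is a hallmark of silent developmental genes. PRC2 is recruited mainly at unmethylated CpG islands, which often lie at promoters, and the mark can spread from there over neighbouring chromatin because the subunit EED binds H3K27me3 itself. Along the body of transcribed genes the mark is usually missing, since transcription and the methylation of lysine 36 counteract PRC2.

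In replicates 1 and 2, respectively, the WT lists held 285826 and 222191 peaks, those of 231K 271413 and 212347, and those of 232P 147118 and 199677. Depth was taken as the lowest local background of a list divided by its smallest peak width. Relative to WT replicate 1, it was 66.6% in WT replicate 2, 94.8% and 68.7% in 231K, and 68.1% and 56.9% in 232P. The lists carry no read counts, and a mark that is missing from a list only failed the threshold of the peak caller at that depth. A technical feature went with the replicate number, as the smallest peak spanned between 175 and 179 bp in the 3 replicate 1 lists and between 240 and 262 bp in the 3 replicate 2 lists. Coverage of genes below was therefore set against the WT list of the same number. Labels and contents raised doubts in both lines. Single peaks in the lists labelled 232P are named 231P, which is the name of another Tau-KO line of the study, so that which of the lines these lists hold cannot be told from them. The sample labels were followed, and 232P below stands for the lists labelled so. Besides, 2 lists stood apart. The list of 232P replicate 1 covered 1.92% of all autosomal protein-coding gene bodies with peaks, against 5.51% and 7.29% in WT, 5.19% and 7.59% in 231K and 5.67% in 232P replicate 2. In 231K replicate 1, deviations of gene coverage from WT over 364 genes with 20 or more marks followed those of 232P replicate 2 (Pearson's r = 0.679, and 0.509 without ST6GAL1) more than those of 231K replicate 2 (0.242, and 0.336 without ST6GAL1). These correlations are across genes, which are not independent replicates, and the deviations of 231K and 232P lists of the same number share a WT list. Whether this list carries the right label was not tested. Results are given per list and, where it matters, without these lists.

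The target of the knock-out, MAPT, carried no mark of both WT lists, and 0% of its body was covered by peaks in each of the 6 lists. Its chromatin thus offers no check of the knock-out. IGFBP3, an insulin-like growth factor binding protein that the study follows, had a single mark of both WT lists (chr7:45917984-45920505, 2522 bp), which overlapped a TSS and counted as a promoter mark. Neither gene thus hosted a gene-body mark under the rule used here. The study called broad peaks, annotated them to the nearest gene and reports more than a single mark for IGFBP3. It found no significant difference in them between Tau-KO and Tau-expressing cells.

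To show what the DNA under gene-body marks looked like, 201 bases of hg38 around the summit in WT replicate 1 are printed for 7 marks, plus strand, 5′ to 3′, with each CpG in capitals. None of the windows overlapped an exon of a protein-coding gene. The marks printed for RUNX1 and GIMAP6 had their midpoints outside the canonical transcript of the gene. The first set holds the mark of median WT rank from RBFOX1, RUNX1 and CNTN5, which are among the host genes with the most marks. Rank is the lower of the 2 percentiles of the −log10 q-value in the WT lists.
RBFOX1 chr16:7636739-7636939: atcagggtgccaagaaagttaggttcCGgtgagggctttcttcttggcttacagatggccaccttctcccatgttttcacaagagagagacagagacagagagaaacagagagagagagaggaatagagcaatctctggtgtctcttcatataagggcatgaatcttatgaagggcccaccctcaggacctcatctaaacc
RUNX1 chr21:35471743-35471943: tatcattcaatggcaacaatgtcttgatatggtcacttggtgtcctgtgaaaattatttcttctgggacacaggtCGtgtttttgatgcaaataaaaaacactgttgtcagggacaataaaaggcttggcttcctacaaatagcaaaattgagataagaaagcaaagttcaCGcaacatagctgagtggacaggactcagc
CNTN5 chr11:99774549-99774749: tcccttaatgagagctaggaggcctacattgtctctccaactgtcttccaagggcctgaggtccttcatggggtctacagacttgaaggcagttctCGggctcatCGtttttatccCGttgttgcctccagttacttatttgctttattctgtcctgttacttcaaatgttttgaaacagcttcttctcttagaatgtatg
The second set holds marks of high WT rank that lay outside exons, from HOXB6, HOXA3 and GIMAP6, which were found in all 6 lists.
HOXB6 chr17:48598956-48599156: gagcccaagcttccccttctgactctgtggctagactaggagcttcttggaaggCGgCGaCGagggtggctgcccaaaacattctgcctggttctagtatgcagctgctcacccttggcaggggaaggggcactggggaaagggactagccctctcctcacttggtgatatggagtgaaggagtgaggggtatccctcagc
HOXA3 chr7:27109491-27109691: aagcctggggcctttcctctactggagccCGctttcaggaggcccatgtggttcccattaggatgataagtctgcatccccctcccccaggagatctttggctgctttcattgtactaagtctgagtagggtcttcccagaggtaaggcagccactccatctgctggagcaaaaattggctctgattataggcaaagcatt
GIMAP6 chr7:150624687-150624887: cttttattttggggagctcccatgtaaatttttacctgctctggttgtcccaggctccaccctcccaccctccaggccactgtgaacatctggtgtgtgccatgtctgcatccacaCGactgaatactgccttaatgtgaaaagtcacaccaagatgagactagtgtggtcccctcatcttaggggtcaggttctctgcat
The last sequence is from a mark of high WT rank in PTPRD that had a peak in no Tau-KO list.
PTPRD chr9:10583204-10583404: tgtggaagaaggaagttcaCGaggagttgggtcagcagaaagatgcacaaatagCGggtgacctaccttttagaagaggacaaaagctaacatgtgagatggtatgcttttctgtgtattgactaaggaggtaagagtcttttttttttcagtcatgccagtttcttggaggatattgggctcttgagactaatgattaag
Within these 201 bases there were between 1 and 3 CpG. The HOXB6 window had a G+C content of 58.2%, the RUNX1 window 39.3%. CpG were thus sparse in the windows from HOXB6, HOXA3 and GIMAP6 as well as in the one without a peak in Tau-KO cells.

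Over all gene-body marks the same held. Their median G+C content was 39.8% (quartiles 36.7% and 43.5%), and CpG occurred at 0.191 of the frequency that base composition predicts. Promoter marks had a median G+C content of 42.7% and a CpG ratio of 0.235, intergenic marks 39.8% and 0.186. A G+C content above 55% together with a CpG ratio above 0.65, as in a CpG island, was found over the whole interval in 8 gene-body marks, or 0.0276%. The same held for 17 promoter marks (0.288%) and 18 intergenic marks (0.0265%). From the lowest to the highest quartile of WT rank, the median CpG ratio was 0.171, 0.179, 0.191 and 0.213. Among the 10 marks of highest WT rank, the ratio lay between 0.109 in HOXA3 and 0.528 in FAM90A22.

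Gene-body marks lay in few genes. Of 19111 autosomal protein-coding genes, 2277 hosted a mark, which is 11.9% of these genes. A single mark was found in 716 host genes, whereas 364 genes with 20 or more marks held 75.6% of all gene-body marks. Host genes were longer than the other genes, with a median length of 42.5 kb against 26.6 kb. The share of host genes rose with length, from 9.03% of genes under 10 kb to 36.6% of the genes of 500 kb or more. In 75.2% of host genes at least 1 of the gene's own TSS carried a mark of both WT lists, compared to 6.45% of genes without a gene-body mark. Counted by marks, 93.3% lay in a gene whose own TSS was marked. A TSS counted as marked when any mark of both WT lists, of any width, lay within 1 kb of it. Where marks are dense and a gene has several annotated TSS, this can be met by position alone. The shares therefore describe the marks and are no separate evidence of a link to promoters. Few marks (4.08%) lay within 1 kb of a TSS of another gene type, such as a long non-coding RNA.

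Most long genes had no gene-body mark, and the others varied widely in the density of marks. Of 309 genes of 500 kb or more, 196 had no gene-body mark, 35 had fewer than 1 mark per 100 kb, 11 had 1 to 5, 12 had 5 to 10 and 55 had 10 or more. In the 55 dense genes, the median share of the body covered by peaks was 29.1% and 46.2% in the WT lists, 29.0% and 46.7% in 231K, and 6.63% and 33.6% in 232P. In the 196 genes without a mark, the median was 0% in all 6 lists, and no gene exceeded 1.02% in any list. At least 1 own TSS was marked in 54 of the 55 dense genes and in 14 of the 196, a contrast that the density of marks alone can bring about. Long genes without a mark included ALK, a receptor tyrosine kinase and known neuroblastoma oncogene, ANK2 and ANK3, which code for ankyrins, MYT1L, a neuronal transcription factor, the axon guidance receptor ROBO1 and the presynaptic adhesion gene NRXN3. ALK, ANK2 and ANK3 had 0% covered in each list, and ROBO1 between 0% in 232P replicate 1 and 0.242% in 231K replicate 2. DSCAM, a cell adhesion gene, is an example of a long gene with a marked TSS and no gene-body mark, with 0.373% and 0.386% covered in WT. These long genes were named after their values were seen.

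**Figure D1:**
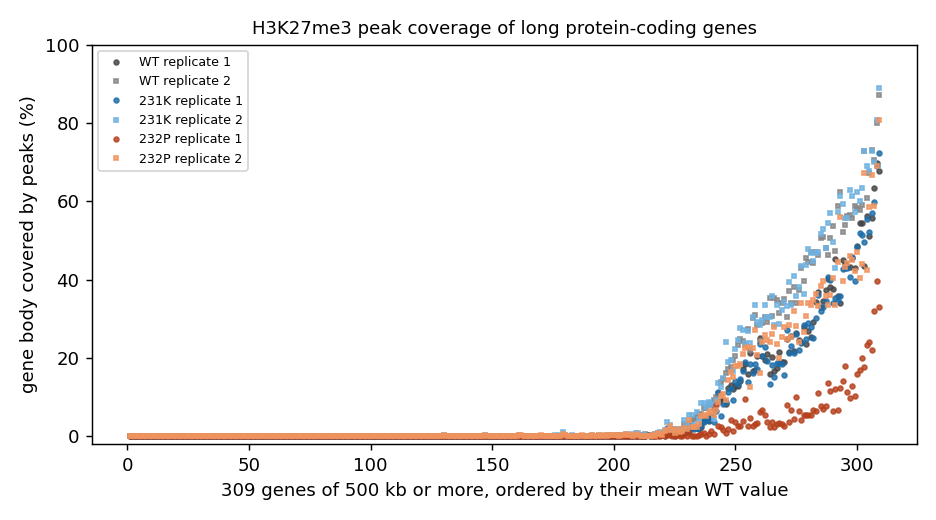
Share of the gene body covered by H3K27me3 peaks (y axis, percent) in the 309 autosomal protein-coding genes of 500 kb or more, ordered by their mean in WT (x axis), with a point per gene and list. Visible are a long run of genes at or near 0% in all 6 lists and a rising arm in which the points of 232P replicate 1 lie lowest.

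The 10 host genes with the most marks are shown next, with the share of the gene body covered by peaks in WT replicates 1 and 2, 231K replicates 1 and 2, and 232P replicates 1 and 2. CSMD1, a large membrane protein with complement control domains (chr8:2935353-4994972), held 534 marks and was covered to 43.1%, 58.8%, 39.7%, 57.3%, 10.2% and 42.3%. RBFOX1, a neuronal splicing regulator (chr16:5239802-7713340), held 383 marks and was covered to 25.1%, 24.4%, 23.5%, 28.5%, 6.26% and 16.2%. RUNX1, a transcription factor of blood formation (chr21:34787801-36004667 as annotated), held 274 marks and was covered to 40.2%, 46.3%, 40.7%, 54.5%, 13.6% and 33.6%. In these genes both 231K lists lay close to or above the WT range and 232P replicate 1 lay far below it. The contactin gene CNTN5 (264 marks), the cadherin CDH13 (254), the delta catenin CTNND2 (230) and NKAIN2 (223), which codes for a partner of the sodium-potassium pump, followed. CTNND2 was covered to 43.4% and 56.2% in WT, 43.1% and 55.7% in 231K, and 11.2% and 44.3% in 232P. CNTN5 was covered to 19.1% and 35.2% in WT, 15.7% and 34.3% in 231K, and 2.71% and 27.9% in 232P. The spread between replicates of CNTN5 was thus wider than the gap between WT and 231K. CSMD3 had 202 marks, the sarcoglycan SGCZ 196 and ZFPM2, a cofactor of GATA factors, 195. In each of the 10 genes at least 1 own TSS was marked as well, which dense marks alone can bring about. Of the 10 genes, 4 lie on chromosome 8.

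By chromosome, gene-body marks were densest on chromosome 21, with 64.3 marks per Mb of gene body, and on chromosome 8, with 53.3. They were sparsest on chromosome 22 with 7.64 and chromosome 15 with 9.12 per Mb. Chromosome 21 carries RUNX1, whose 274 marks are part of its 810.

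Along the host gene, marks showed little preference. When each host gene was divided into 10 equal parts from the 5′ to the 3′ end, it carried on average between 10.6 mark midpoints per 100 kb in part 9 and 12.3 in part 2. Midpoints lay in intron 1 of the canonical transcript in 19.8% of marks, in other introns in 57.5%, in exons in 3.34%, and outside the canonical transcript of the host in 19.3%. Among midpoints within the canonical transcript, 24.6% were in intron 1, which makes up 23.5% of these bases in host genes. Other introns held 71.3% of midpoints and 72.9% of bases, exons 4.14% and 3.53%. The first part was depleted of positions by the rule, which excluded 1 kb around each TSS. The median distance to the nearest protein-coding TSS was 27192 bp, with quartiles of 9239 and 72554 bp.

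Marks were clustered. The median gap to the nearest other mark of both WT lists was 357.5 bp, and 95.5% had another mark within 5 kb. When marks within 10 kb were joined, gene-body marks fell into 3035 blocks, of which 582 held a single mark. Blocks of 100 kb or more numbered 723 and held 65.6% of gene-body marks, and the longest spanned 1044 kb. Only 181 marks, or 0.625%, had no other mark within 50 kb. Such isolated marks were narrower (median 825 bp) than marks with a neighbour within 5 kb (1465 bp). They were found in 48.1% and 59.1% in the 231K lists and in 29.8% and 43.6% in the 232P lists, compared to 82.2%, 90.0%, 49.5% and 79.6% for marks with a close neighbour.

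**Figure D2:**
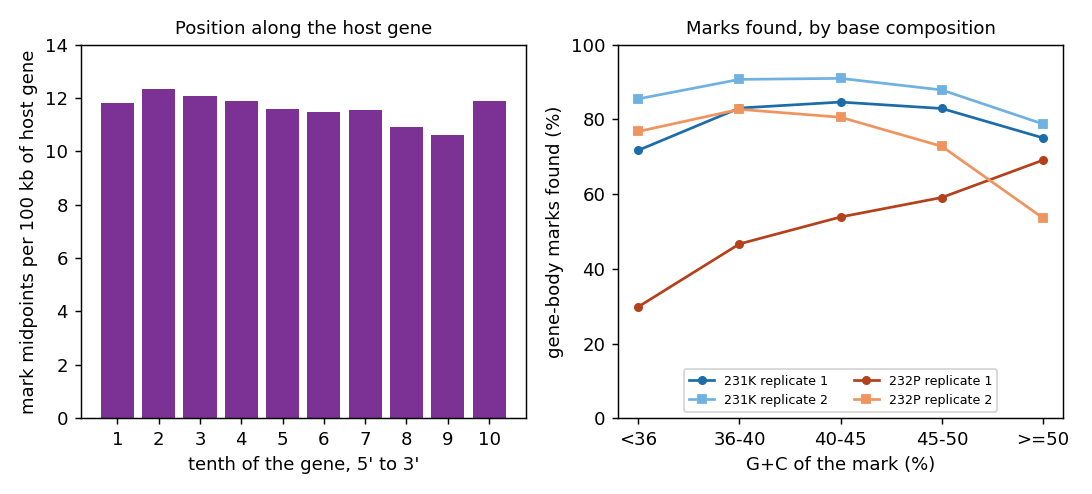
Left, midpoints of gene-body marks per 100 kb of host gene (y axis) in 10 equal parts of the gene from 5′ to 3′ (x axis), which stay between 10.6 and 12.3. Right, share of gene-body marks found in each Tau-KO list (y axis, percent) by G+C content of the mark (x axis, percent), which rises in 232P replicate 1 and falls in 232P replicate 2 towards G+C-rich marks.

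Gene lists were read against the 11.9% of all autosomal protein-coding genes with a gene-body mark and their median length of 27.9 kb. Among receptors of inhibitory transmitters, 12 of 21 GABA and glycine receptor genes hosted 289 marks (median length 96.0 kb), led by the GABA-A receptor subunit genes GABRB1 with 68 and GABRB2 with 48. GABRB2 was covered to 21.6% and 35.3% in WT, 19.8% and 31.5% in 231K, and 2.48% and 25.9% in 232P. Of glutamate receptor genes, which are longer (median 281.6 kb), 11 of 26 hosted 406 marks, led by the NMDA receptor subunit genes GRIN2B with 150 and GRIN2A with 95. GRIN2B was covered to 45.4% and 55.7% in WT, 45.7% and 61.4% in 231K, and 12.7% and 44.9% in 232P. As uncorrected shares, the values of 232P replicate 1 were the lowest in both genes. Log2 ratios to the WT list of the same number were centred on the median of each list. For GRIN2B they were 0.06 and 0.09 in 231K and 0.15 and 0.06 in 232P. For GABRB2 they were −0.07 and −0.22 in 231K and −1.10 and −0.08 in 232P. Having 1 sign in all 4 Tau-KO lists was not particular to these genes. Of 364 genes with 20 or more marks, 44 (12.1%) were above 0 in all 4 and 48 (13.2%) below 0.

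Of ion channel genes, 24 of 94 potassium channel genes hosted 665 marks, led by KCNJ6 (123) and KCNN2 (106), and 6 of 25 calcium channel subunit genes hosted 191, led by CACNA1E (81) and CACNA1A (63). KCNJ6, an inward rectifier opened by G proteins, was covered to 56.2% and 60.8% in WT, 55.5% and 68.9% in 231K, and 23.2% and 42.4% in 232P. Solute carriers followed the background more closely, with 56 of 371 genes, 15.1%, and 1277 marks, led by SLC9A9 (144) and SLC4A4 (119), exchangers or cotransporters of ions. The median length was 46.2 kb for potassium channel genes, 119.0 kb for calcium channel subunit genes and 39.5 kb for solute carriers.

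Of adhesion, guidance and matrix genes, 13 of 100 cadherins and protocadherins hosted 622 marks, led by CDH13 (254) and CDH12 (184), and 11 of 72 axon guidance genes hosted 204, led by the ephrin receptor genes EPHA3 (71) and EPHA5 (59). Collagens had marks in 13 of 42 genes (353 marks), led by COL25A1 (119) and COL24A1 (63), and ADAMTS proteases in 6 of 24 (269 marks), led by ADAMTSL1 (107) and ADAMTSL3 (90). The median length was 107.6 kb for cadherins and protocadherins, 76.4 kb for axon guidance genes, 133.5 kb for collagens and 131.1 kb for ADAMTS proteases. Of all genes of 100 to 200 kb, 16.0% hosted a mark. COL25A1 was covered to 42.7% and 67.3% in WT, 44.0% and 71.4% in 231K, and 11.2% and 53.5% in 232P. Relative to the median ratio of each list, its log2 ratio to the WT list of the same number was 0.10 and 0.03 in 231K. In 232P it was 0.06 and 0.04. Each value was smaller than the SD of its list over genes, which was 0.26 and 0.18 in 231K and 0.62 and 0.29 in 232P.

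Of signalling genes, 11 of 58 WNT pathway genes hosted 81 marks, led by the R-spondins RSPO2 (36) and RSPO3 (18), which amplify WNT signals. TGF-beta and BMP genes hosted 151 marks in 8 of 67 genes, led by LTBP1 (100), which binds latent TGF-beta, and TGFBR3 (16), a co-receptor. Homeobox and other patterning transcription factors are short genes, with a median of 9.41 kb, and 98 of 248 hosted 875 marks, led by RUNX1 (274) and FOXP2 (134). Of zinc finger genes, which code mostly for KRAB repressors in the human genome, 33 of 553, or 5.97%, hosted 94 marks, led by ZNF19 (11) and ZNF215 (9). Of senescence and secretory phenotype genes, 11 of 60 hosted 56 marks, led by ANGPT1 (33), an angiopoietin, and SERPINB2 (5), an inhibitor of plasminogen activators, with CDKN2A, the gene of the cell cycle inhibitors p16 and ARF, at the same number of 5. The median length was 45.7 kb for WNT pathway, 38.2 kb for TGF-beta and BMP, 25.3 kb for zinc finger and 12.6 kb for senescence and secretory phenotype genes.

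None of 13 genes of the adrenergic state, which is the state SH-SY5Y cells are known for, hosted a gene-body mark. These genes are short, with a median of 9.62 kb, and 9.03% of all genes under 10 kb hosted a mark, so that a count of 0 is near the background. TH, DBH, CHGA, GATA3 and HAND2 were covered to 0% in all 6 lists. Of 17 genes of the mesenchymal state, which are longer (median 75.5 kb), 8 hosted 358 marks, with most in RUNX1 (274), which is also in the patterning list, and RUNX2 (29), a bone transcription factor. YAP1 held 26, MEOX2 18, PRRX1 6, and TBX18 and TWIST2 1 each. No gene-body mark was found in the 30 housekeeping genes or in the 12 genes for PRC2 subunits and H3K27 demethylases. Peak coverage is a measure of chromatin and not of expression.

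By WT rank, the strongest gene-body marks included those in MUC12, FAM90A22, HOXB6, HOXA3, GIMAP6, BCL11B, FOXF2, HOXB7 and GIP, and all of these were found in all 6 lists. MUC12, a mucin, and FAM90A22, a multicopy gene, contain repeated sequence, so that placement of reads is uncertain there. The local background under the MUC12 mark was 2.59 to 5.80 times the floor of the lists. The HOXB6 mark (chr17:48598142-48602586, 4445 bp) overlapped HOXB3 and HOXB6, homeobox genes of axial patterning, with its midpoint in an intron of HOXB6, and reached a fold enrichment over background of 13.1 and 12.6 in WT, 12.5 and 16.7 in 231K, and 9.59 and 7.12 in 232P. The HOXA3 mark (chr7:27108857-27110247) reached 11.3 and 11.3 in WT, 7.74 and 18.8 in 231K, and 11.1 and 8.57 in 232P. Of these marks, the HOXA3 values of 231K enclosed all others, while the HOXB6 values of both 232P lists lay below WT. BCL11B, a zinc finger factor of T cells and neurons, carried its mark in intron 1 (7320 bp), with 9.92 and 10.5 in WT, 6.56 and 12.5 in 231K, and 6.46 and 6.78 in 232P.

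To ask how far gene-body marks were found in Tau-KO cells, each mark was looked up in the 4 Tau-KO lists. In 231K, 80.8% and 88.7% of gene-body marks were found in replicates 1 and 2, with a mean of 84.8% ± 5.61 (SD, n = 2). In 232P, 48.3% and 78.0% were found, with a mean of 63.2% ± 21.1 (SD, n = 2). The lines did not overlap, but the lists of 232P differed more from each other than the means of the lines. The difference of 21.6 percentage points had p = 0.33 (exact permutation test, two-sided, 0.33 after adjustment over 4 tests), which is the smallest p that 2 lists against 2 can give. Without 232P replicate 1 it was 6.73 points, and without 232P replicate 2 it was 36.5. With equal numbers of strongest peaks per list it was 11.6 points, and the lists of the lines then overlapped, as they did when 50% of a mark had to be covered (29.6 points).

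All 6 lists held 11886 gene-body marks, or 41.0%, against 40.2% of all marks of both WT lists. Without 232P replicate 1, the other 5 lists shared 66.1%, against 63.9% of all marks. A further 8756 were found in 5 lists, 4637 in 4, 2642 in 3 and 1055 in the WT lists alone. Neither 231K list held 1819 marks (6.28%, background 7.27%), and neither 232P list held 4903 (16.9%, background 18.3%). No Tau-KO list held 3.64% (background 4.4%). Losses in gene bodies were therefore near those of all marks. Of the marks missing, 764 were missing from 231K only and 3848 from 232P only. Counted in single lists, 19.2% and 11.3% were missing in 231K and 51.7% and 22.0% in 232P.

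Promoter marks were found more often, in 89.6% and 94.7% in 231K and in 75.0% and 86.0% in 232P. Gene-body marks were found less often than promoter marks in 4 of 4 lists, by 5.99 to 26.7 percentage points (mean −12.4 ± 9.63 SD, n = 4, exact sign-flip permutation test, two-sided, p = 0.13, adjusted p = 0.25). Intergenic marks were found in 77.8% and 85.7% in 231K and in 44.7% and 75.0% in 232P. Gene-body marks were found more often than these in 4 of 4 lists, by 2.96 to 3.61 points (mean 3.17 ± 0.297 SD, n = 4, exact sign-flip permutation test, two-sided, p = 0.13, adjusted p = 0.25). The smallest p that 4 lists can give in this test is 0.13, so that neither difference could pass 0.05. The 4 lists are compared with the same WT marks and are not independent in this respect. Without 232P replicate 1, the mean difference to promoter marks was −7.58 points. With WT replicate 1 or 2 left out, that to intergenic marks was 4.87 or 5.85. With peaks of a −log10 q-value from 5 upwards it was 0.179 points, and the lists did not share 1 sign. Marks of 20 kb or more were found in all lists.

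**Figure D3:**
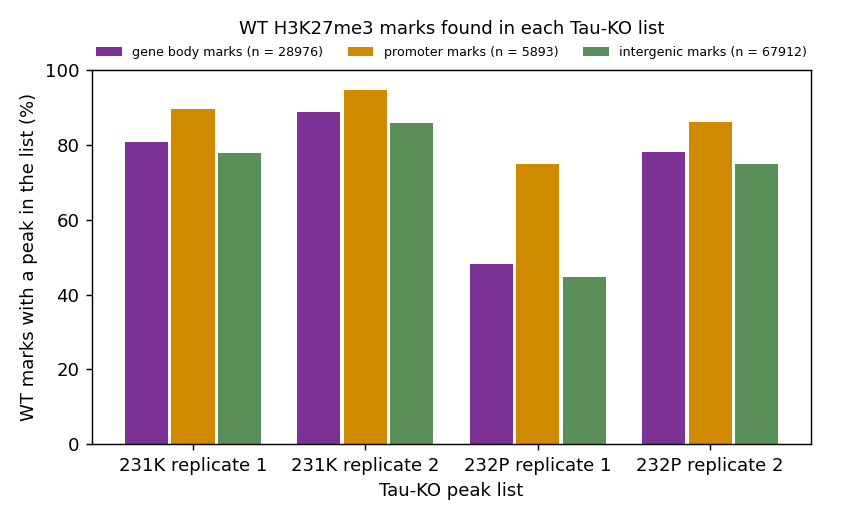
Share of WT marks with a peak in each Tau-KO list (y axis, percent), for gene-body, promoter and intergenic marks (bars, no error since each bar is 1 list). Promoter bars are highest in all 4 lists, and 232P replicate 1 shows the widest gap, 48.3% of gene-body against 75.0% of promoter marks.

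Width differed between the classes, with a median of 1422 bp for gene-body, 2387 bp for promoter and 1318 bp for intergenic marks, and the share found rose with width in each class. Gene-body marks under 500 bp were found in 45.3% and 61.3% in 231K and in 16.8% and 42.4% in 232P, those of 4 to 8 kb in 99.9%, 100%, 93.9% and 99.7%. At equal width the mean gap to promoter marks was −7.40 points under 500 bp, −9.17 for marks of 500 bp to 1 kb, −8.36 for 1 to 2 kb and −3.93 for 2 to 4 kb, each smaller than the −12.4 over all widths. In marks of 8 to 20 kb, nearly all of which were found, it was −0.0309. In single lists it was not always smaller, as 231K replicate 1 had −10.5 under 500 bp, below its value over all widths, and 231K replicate 2 −8.66 for 500 bp to 1 kb against −5.99 over all widths. In the class of 1 to 2 kb it was −21.6 in 232P replicate 1 and between −4.52 and −3.17 in the other lists. Below 500 bp the sign differed between lists, with −27.8 in 232P replicate 1 and 7.48 in 232P replicate 2. Against intergenic marks, the difference was 3.39 points under 500 bp, which is larger than over all widths, 2.49 for 500 bp to 1 kb, 2.09 for 1 to 2 kb and 0.219 for 2 to 4 kb, where 231K replicate 1 and 232P replicate 1 were below 0.

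**Figure D4:**
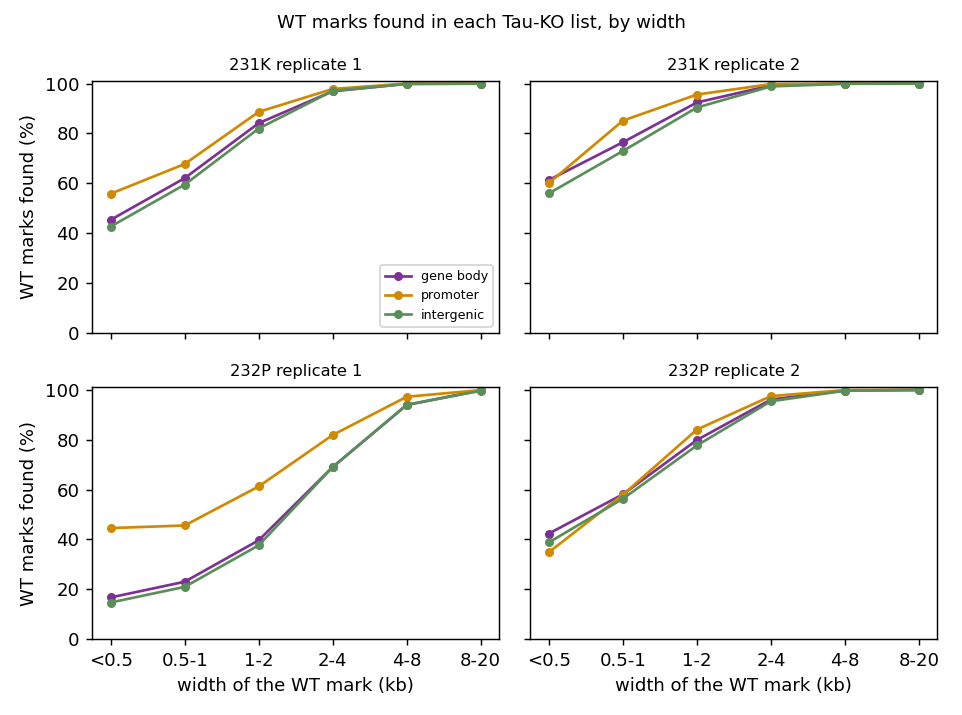
Share of WT marks found (y axis, percent) by width of the WT mark (x axis, kb), for gene-body, promoter and intergenic marks in the 4 Tau-KO lists. The lines of the classes meet at 100% for wide marks, and the promoter line stands clearly apart under 4 kb in 232P replicate 1.

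Strength in WT went with presence in Tau-KO lists. From the lowest to the highest quartile of WT rank, the share of gene-body marks in all 6 lists was 12.1%, 22.6%, 46.3% and 86.3%, with a median width of 791, 1088, 1809 and 4231 bp. In the lowest quartile 21.4% were found in 232P replicate 1, in the highest 88.3%. Base composition separated the 232P lists from each other. Replicate 1 held 29.8% of marks with a G+C content under 36% and 69.1% of those with 50% or more, whereas replicate 2 held 76.8% and 53.6%. The 231K lists held 71.7% and 85.5% of the marks under 36% and 75.0% and 78.8% of those with 50% or more. Whether base composition sets the presence of marks in 232P was not tested. Position in the gene made little difference, as the share found in all 6 lists lay between 38.3% in part 4 and 46.3% in part 10 of the gene.

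In marks found in all 6 lists, the median fold enrichment was 4.66 and 5.04 in WT, 4.92 and 5.84 in 231K, and 4.32 and 4.86 in 232P. The median log2 fold enrichment of 231K exceeded that of 232P by 0.23 (p = 0.33, exact permutation test, two-sided, adjusted p = 0.33). The values of both lines overlapped those of WT. Without 231K replicate 1 the difference was 0.35, and without 231K replicate 2 it was 0.10.

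Applied to each Tau-KO line, the same rule gave 27628 gene-body marks in 231K (66.5 Mb) and 18585 in 232P (39.0 Mb), against 28976 in WT (67.0 Mb). Of the 231K marks, 76.6% overlapped a gene-body mark of WT, and of the 232P marks 80.2%. The reverse shares were 74.9% and 43.1%. Gene-body marks were 28.1% and 30.6% of all marks of both lists in the lines, and 28.0% in WT.

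Marks missing from both lists of a line had a median WT rank of 17.4 in 231K and 24.7 in 232P, against 51.6 for all gene-body marks. The top quartile of WT rank held 0.275% of those missing in 231K and 1.41% of those missing in 232P. The marks named next were the strongest of these and are not typical of them. Marks of highest WT rank in neither 231K list included those in CCDC85A, MSRB3, ENPP1 and PTPRD, each in an intron. The PTPRD mark (chr9:10582400-10583428), in a receptor phosphatase gene, was enriched 4.37-fold and 5.04-fold in WT and had no peak in Tau-KO lists. CCDC85A had a peak of 3.53-fold enrichment in 232P replicate 2, and ENPP1, an ectoenzyme gene, of 4.86 in the same list. All of these were at or below a WT rank of 82.2. Marks of highest rank in no Tau-KO list included those of MSRB3 and PTPRD, followed by DCDC1 and ENSG00000255641.

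In neither 232P list, the 5 marks of highest WT rank lay in POTEM, LPA, TRPM3, GOLGA6L1 and POTEG. POTEM, POTEG and GOLGA6L1 have near-identical copies and LPA has repeated kringle domains, so that their reads can be placed elsewhere and these losses are uncertain. TRPM3, a cation channel, had its mark in intron 1 (chr9:70934883-70937968, 3086 bp), enriched 5.34-fold and 6.73-fold in WT, 2.89 and 7.35 in 231K and no peak in 232P. Here 231K replicate 1 was lower and 231K replicate 2 higher than WT.

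By list, marks were missing from both 232P lists in 28.7% of the 289 marks of GABA and glycine receptors, in 36.2% of the 94 of zinc finger genes, in 24.0% of the 204 of axon guidance genes and in 10.3% of the 875 of patterning factors, against 16.9% of all gene-body marks. In 231K these shares were 10.7%, 11.7%, 11.3% and 5.14%, against 6.28%. Marks of 1 gene lie next to each other and are not replicates, and no test was made of these shares. Gene-body marks of chromosome 7, where the background was 1.37 to 1.45 times the floor in the 6 lists, were missing from 232P in 8.32%.

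For whole genes, the share of the body covered was compared with the WT list of the same number in the 364 genes with 20 or more marks, as a log2 ratio centred on the median of each list (0.1 percentage points were added to each value). The genes were kept for their marks in WT, so that a low share covered in Tau-KO lists is favoured by the choice. Centring removes the part of this that all genes of a list have in common. In 231K, ratios were below −0.5 for 13 genes of replicate 1 and 5 of replicate 2, and in 232P for 68 and 18. They were above 0.5 for 1 and 1 genes in 231K and for 74 and 0 in 232P. In both 231K lists only KHDRBS2 was below −0.5 (0.275% of the genes). In both 232P lists 9 genes were (2.47%), among them ANKRD30B, CCDC59, COL21A1, LRRC1, MSRB3, RAI14 and ST6GAL1. No gene was below −0.5 in all 4 lists, while 48 genes were below 0 and 44 above 0 in all 4. These genes were named after their values were seen. KHDRBS2, an RNA binding protein of the brain, was covered to 6.96% and 9.34% in WT, 3.60% and 4.46% in 231K, and 0.589% and 5.45% in 232P, so that the Tau-KO lists lay below both WT lists.

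ST6GAL1, a sialyltransferase gene (chr3:186930325-187078553), held 23 marks and was covered to 19.0% and 22.7% in WT and to 0.488% and 1.89% in 232P. In 231K it was covered to 1.92% in replicate 1 and 24.9% in replicate 2, so that 1 list of this line resembled 232P and the other WT. MSRB3 also held 23 marks and was covered to 11.7% and 22.8% in WT, 4.31% and 17.8% in 231K, and 0.950% and 8.93% in 232P. PRDM16, a regulator of brown fat and stem cells on chromosome 1 (102 marks), was covered to 46.9% and 30.6% in WT, 25.4% and 29.0% in 231K, and 49.2% and 12.1% in 232P. Its 232P lists thus lay above and below all others.

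**Figure D5:**
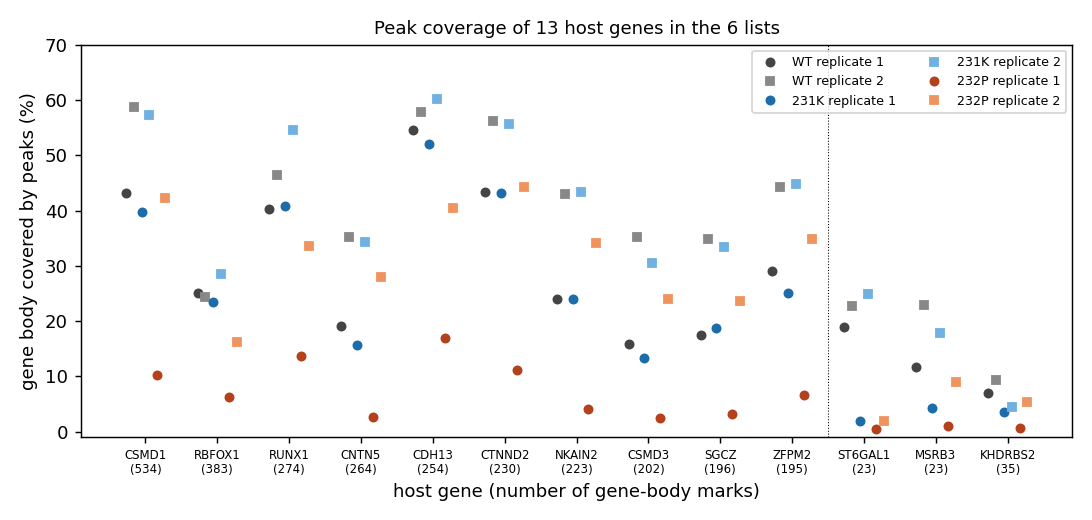
Share of the gene body covered by peaks (y axis, percent) in the 6 lists, for the 10 host genes with the most marks (left of the dotted line) and for ST6GAL1, MSRB3 and KHDRBS2 (right), with the number of gene-body marks in brackets. In the 10 genes 232P replicate 1 lies lowest, and in ST6GAL1 231K replicate 1 lies with the 232P lists at 1.92%, while 231K replicate 2 is at 24.9%.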

How the data were processed

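H3K27me3 ChIP-seq was done on WT, 231K and 232P cells, with 2 replicates each. Per the labels and the methods, reads were trimmed by the authors, aligned with BWA (hg38) and passed to MACS (version 2) sample by sample. Broad peaks are named in the methods, whereas the deposited files are in narrowPeak format with 10 columns. Threshold, fragment length, handling of duplicates and control library are not given in the sources used here. As deposited, fold enrichment is a ratio of reads to local background at the summit, and significance is given as −log10 of p-value and q-value. The deposited score repeats the q-value and was not used. Because these values depend on depth, they served to rank and describe marks. No read counts are in the lists, so that no model on read counts could be fitted and no interval from read counts be given.

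Height and background were recovered with the Poisson distribution of MACS (tolerance 0.001 on −log10 p). The lowest background of a list, divided by its smallest peak width, gave relative depth. Peaks lay within the hg38 chromosomes. Marks were classified with GENCODE release 44, and presence was an overlap of at least 1 bp. Position was the midpoint in the canonical transcript. Percentages were compared by exact permutation tests with Benjamini-Hochberg adjustment over 4 tests. Members and gene lists were chosen with earlier results of these data known. Named genes were the hosts of the 10 marks of highest WT rank, the 10 hosts with the most marks, per Tau-KO line the 5 marks of highest rank in neither list, 5 in no Tau-KO list, genes named by the study and the 2 genes with the most marks of each list. Others were named after their values were seen. Steps were tested on simulated data. As alternatives, peaks with a −log10 q-value from 5 upwards, a q-value under 0.05, equal numbers of strongest peaks, merging within 1 kb, 50% cover, a TSS window of 2.5 kb, a width limit of 10 kb, leaving out chromosomes 1, 2, 7 and 17, permutation within the replicate number, leaving out each replicate and, added after seeing the data, TSS of protein-coding transcripts only, were tried. Python 3.11.15, pandas 2.3.3, scipy 1.17.1 and pysam 0.24.0 were used. Some genes and sequences that these rules select are not reported here, and no sequence of chromosome 8 was read.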

Additional observations from a re-analysis of the deposited data

Results flagged for a closer look

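Of 40 named host genes with 20 or more marks, PTPRD was the only gene whose centred log2 ratio to the same-numbered WT list had 1 sign in both 231K lists and the opposite sign in both 232P lists. It was 0.17 and 0.05 in 231K and −0.48 and −0.08 in 232P, a difference of 0.391 between the means of the lines. PTPRD was covered to 3.95% and 8.32% in WT, 4.30% and 8.91% in 231K, and 0.637% and 6.05% in 232P. PTPRD was among the named genes because it holds a mark with a peak in no Tau-KO list, so that low values in 232P are favoured by this choice. How many of all genes with 20 or more marks show such signs was not counted. With 2 lists per line, signs can fall this way by chance, and this contrast was not tested. Groups of 2 lists are too small to look for single outlying lists.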

How the results depend on the processing

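The difference between the lines and the differences to promoter and intergenic marks kept the direction of their means under all alternatives. The lists of the lines overlapped in the share found with equal numbers of strongest peaks or 50% of a mark covered, and in fold enrichment with merging within 1 kb or a width limit of 10 kb (each p = 0.67, exact permutation). No p could fall below 0.33 or 0.13, so that p-values above 0.05 follow from the design. The number of gene-body marks fell to 4654 at a −log10 q-value from 5 upwards, to 17200 with equal numbers of strongest peaks and to 9071 with merging within 1 kb. When 50% of a mark had to be covered, 23.6% were missing in 231K and 49.2% in 232P. Intron 1 held 18.0% of marks at a −log10 q-value from 5 upwards and 19.4% with a TSS window of 2.5 kb, against 19.8%. Its 95% Wilson interval was 19.4% to 20.3%, which counts marks as independent although they lie in clusters. The cause was not tested. At a −log10 q-value from 5 upwards, the difference to intergenic marks was 0.179 points (p = 1.0, exact permutation), and with 50% of a mark covered it was 2.83 (p = 0.25, exact permutation), and in both cases the 4 lists did not share 1 sign. At that q-value the difference between the lines was 37.0, compared to 11.6 with equal numbers of strongest peaks.

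Leaving out each replicate moved the number of marks between 28976 and 73634 (52893 without WT replicate 1 and 73634 without WT replicate 2), the share missing in 231K between 6.28% and 19.2%, in 232P between 16.9% and 51.7%, and in no Tau-KO list between 4.19% and 11.7%. The difference between the lines lay between 6.73 and 36.5 points, that to promoter marks between −16.7 and −7.58, that to intergenic marks between 3.02 and 5.85, that of log2 fold enrichment between 0.10 and 0.35, and the share in intron 1 between 19.8% and 20.5%. Leaving out a WT replicate asks for peaks in 1 WT list only.

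Ratios of gene coverage were taken to the WT list of the same number. In the tests between the lines, same-numbered lists were not treated as pairs, since across marks their deviations in fold enrichment correlated at 0.028, 0.068 and 0.048 only. They did share a shift of the whole list, as the median peak spanned 441, 440 and 335 bp in the replicate 1 and 682, 688 and 666 bp in the replicate 2 lists, and median fold enrichment was higher in replicate 2 of each genotype. With the replicate block, the differences of 21.6 points and of 0.23 in log2 fold enrichment had p = 0.5 (exact permutation within the replicate number), the smallest this design allows. Depth limits what a missing peak can show. Peak number fell broadly with relative depth except in 232P replicate 1, which held 147118 peaks at 68.1% of the depth of WT replicate 1. WT replicate 2 held 222191 at 66.6%. This exception depends on the division by the smallest peak width. The lowest background itself was 1.01 reads in 232P replicate 1, the least of all lists. It was 1.52 and 1.38 in WT, 1.44 and 1.40 in 231K and 1.27 in 232P replicate 2. The part of depth in the results was not tested.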
